A study of Mus musculus with 58 samples.

Results

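The 10 genes described here are Acta2, Tagln, Myl9, Des, Cnn1, Myh11, Rgs5, Notch3, Mcam and Cspg4, which serve as markers of mural cells, the pericytes and smooth muscle cells that wrap blood vessels. They were a fixed list of symbols, matched by Ensembl mouse gene identifier, out of 56953 genes in the count table. The list was chosen with earlier results of these data known. All 10 were among the 12464 genes that passed the count filter. The libraries were bulk Smart-seq3 libraries of adipose stem cells (ASC) sorted from inguinal white adipose tissue (iWAT), the subcutaneous fat of the groin, of C57BL/6J mice. Cells without CD45 and CD31 and with CD34 on their surface were collected as ASC1 where they lacked DPP4 and as ASC2 where they carried it. Castration or ovariectomy was done at 4 weeks of age, and operated and control mice of the same age were terminated at 10 weeks. Control males gave 7 ASC1 and 8 ASC2 libraries, castrated males 8 and 8, control females 8 and 8, and ovariectomized females 3 and 8. Each treatment group had 8 mice, but the labels do not tie a library to a mouse, so p-values measure the spread between libraries.

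Smooth muscle contracts when myosin pulls on actin filaments. Acta2 encodes smooth muscle alpha actin, Myh11 the smooth muscle myosin heavy chain and Myl9 a regulatory myosin light chain, while Tagln (transgelin) and Cnn1 (calponin) bind the actin filaments and Des (desmin) builds the intermediate filaments of muscle. Serum response factor (SRF) switches many of these genes on together with partners of the myocardin family, and activated fibroblasts also express Acta2 and Tagln. The other members mark the mural cell surface or its signalling. Notch3 is a receptor that maintains smooth muscle identity, Rgs5 encodes a regulator of G protein signalling found in pericytes, Mcam the adhesion molecule CD146, and Cspg4 the proteoglycan NG2.

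The promoters of Acta2 and Myl9 are shown because both genes were abundant here and because SRF binds an element, the CArG box, close to the start of many contractile genes. A CArG box is CC, then 6 bases of A or T, then GG, and reads as the same kind of box on either strand. The sequences are from RefSeq on GRCm38.p6, run 5′ to 3′ along the strand of the gene from 250 bases before its start to 50 bases after it, and carry exact boxes and matches with 1 base off in capitals. The Acta2 promoter lies at chr19:34255324-34255623 on the minus strand and the Myl9 promoter at chr2:156775214-156775513 on the plus strand.
Acta2: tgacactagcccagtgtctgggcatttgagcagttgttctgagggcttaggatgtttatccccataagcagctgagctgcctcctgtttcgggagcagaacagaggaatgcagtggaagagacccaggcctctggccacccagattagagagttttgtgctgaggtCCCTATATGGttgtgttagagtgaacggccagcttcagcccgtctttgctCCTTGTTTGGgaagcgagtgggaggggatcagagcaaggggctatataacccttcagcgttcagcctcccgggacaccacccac
Myl9: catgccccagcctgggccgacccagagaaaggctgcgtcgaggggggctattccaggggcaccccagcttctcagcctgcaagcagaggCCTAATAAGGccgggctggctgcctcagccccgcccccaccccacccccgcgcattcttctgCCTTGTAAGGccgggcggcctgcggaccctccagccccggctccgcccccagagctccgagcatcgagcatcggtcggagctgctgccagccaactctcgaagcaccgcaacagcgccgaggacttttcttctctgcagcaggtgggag
Myl9 held an exact box, CCTAATAAGG, that began 161 bases before the start, and CCTTGTAAGG, 1 base off, at 99 bases. Acta2 held CCCTATATGG at 84 and CCTTGTTTGG at 34 bases before the start, each with 1 base off. Of 32851 promoters of this length, 1.63% held an exact box and 21.1% held a box exactly or with 1 base off. Of the 8 members with a promoter in the table, 1 held an exact box and 3 held a box exactly or with 1 base off, the other gene being Cspg4.

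Several libraries stood apart or went against their labels. Total counts ran from 106562 to 1421518 a library (median 682400) and detected genes from 9122 to 15026. In 27 libraries, among them all 8 of castrated male ASC1, sex-chromosome transcripts went against the sex label, and sex and surgery are given as labelled throughout. Libraries labelled male counted with Xist at 20 CPM or more (CPM, reads scaled to the TMM-normalized library size). Libraries labelled female counted where Ddx3y, Eif2s3y, Uty and Kdm5d summed to 20 CPM or more. Among control females these were 5 of 8 ASC1 and 6 of 8 ASC2 libraries. The authors report low counts of Ddx3y and Eif2s3y in female control samples, which they take as weak contamination. The cutoff does not tell such contamination from a wrong label. Tcf21, a transcription factor gene known from visceral fat stroma, was at 8.77 to 79.1 CPM in 23 libraries and at 0 to 1.58 CPM in the other 35, although all were labelled iWAT. Tbx15, known from subcutaneous fat, was at 0 to 13.8 CPM and 8.71 to 73.4 CPM in the same libraries. Those holding Tcf21 were 3 of 7 control male ASC1, 0 of 8 control male ASC2, 6 of 8 castrated male ASC1, 2 of 8 castrated male ASC2, 6 of 8 control female ASC1, 2 of 8 control female ASC2, 0 of 3 ovariectomized female ASC1 and 4 of 8 ovariectomized female ASC2. The 3 ovariectomized female ASC1 libraries had a summed level of 6 fibroblast markers of 47753 to 49533 CPM, against 4447 to 19348 CPM elsewhere, and Mki67, a proliferation gene, at 0 to 4.59 CPM against 8.71 to 106 CPM. Dpp4, the gene of the sorting marker, averaged 236 ± 61 CPM (n = 8) in ASC2 and 6.80 ± 5.56 CPM (n = 7) in ASC1 of control males. The 3 ASC2 markers Dpp4, Cd55 and Arl4d summed to 12.2 to 37.8 CPM in ASC1 and 189 to 494 CPM in ASC2 of control males. In control females they summed to 16.0 to 84.1 CPM and 162 to 839 CPM. The ranges overlapped in castrated males (10.2 to 96.0 and 70.3 to 418 CPM). They also overlapped in ovariectomized females (61.9 to 151 and 103 to 206 CPM, medians 133 and 134). Results are given with and without the libraries that stood apart. This choice was made after seeing the data for Tcf21 and for leaving out all 3 ovariectomized female ASC1 libraries.

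The members divided into abundant filament genes and genes near the limit of detection. Per kilobase of exon, the median level over the 58 libraries was 319 CPM for Acta2 (ENSMUSG00000035783.10), 181 for Myl9 (ENSMUSG00000067818.7) and 172 for Tagln (ENSMUSG00000032085.6), above 98.3%, 97.2% and 97% of 12371 tested genes with a known length. Des (ENSMUSG00000026208.10) followed at 6.79 and Mcam (ENSMUSG00000032135.16) at 3.06 CPM per kilobase. The lowest were Cnn1 (ENSMUSG00000001349.6) at 1.73, Notch3 (ENSMUSG00000038146.9) at 0.912, Rgs5 (ENSMUSG00000026678.11) at 0.845, Myh11 (ENSMUSG00000018830.11) at 0.621 and Cspg4 (ENSMUSG00000032911.7) at 0.532 CPM per kilobase. Acta2, Tagln and Myl9 had reads in every library, whereas Rgs5 reached 5 reads in 11, Myh11 in 21 and Cspg4 in 25 of 58, so the values of these 3 rest on few reads.

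Several defining mural markers were at or near 0 beside the abundant filament genes, and others were not. Over all 58 libraries Higd1b, a pericyte gene, had 21 reads, Rgs5 189, Cox4i2 229 and Abcc9 277, and Myocd (myocardin) had 3. Acta2 had 31756 reads and the fibroblast gene Dcn 162701. The other pericyte markers had more, with 511 reads for Kcnj8, 570 for Vtn, 3548 for Ndufa4l2 and 17000 for Pdgfrb, which fibroblasts share. Of other smooth muscle genes, Mylk (myosin light chain kinase) had 1821 reads and Actg2 780. In bulk RNA, fewer cells of a type and less RNA per cell cannot be told apart.

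Myh11, Cspg4 and Rgs5 stayed low in every group. Mean levels of Myh11 ran from 2.76 CPM in castrated male ASC1 to 15.5 CPM in control female ASC1, those of Cspg4 from 5.59 CPM in control female ASC2 to 16.3 CPM in ovariectomized female ASC2, and those of Rgs5 from 2.16 CPM in castrated male ASC2 to 9.59 CPM in control male ASC2. Fitted on all libraries by edgeR, Myh11 and Cspg4 were called in none of the 13 comparisons, and 33 of 130 pairs of a member and a comparison were called, beside 13.3% of all pairs of a gene and a comparison. Of the 33, 17 lay in the 4 comparisons that use the 3 ovariectomized female ASC1 libraries. In these 4, 20.3% to 35.4% of all tested genes passed, so calls were also more frequent there over all genes.

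**Figure D1:**
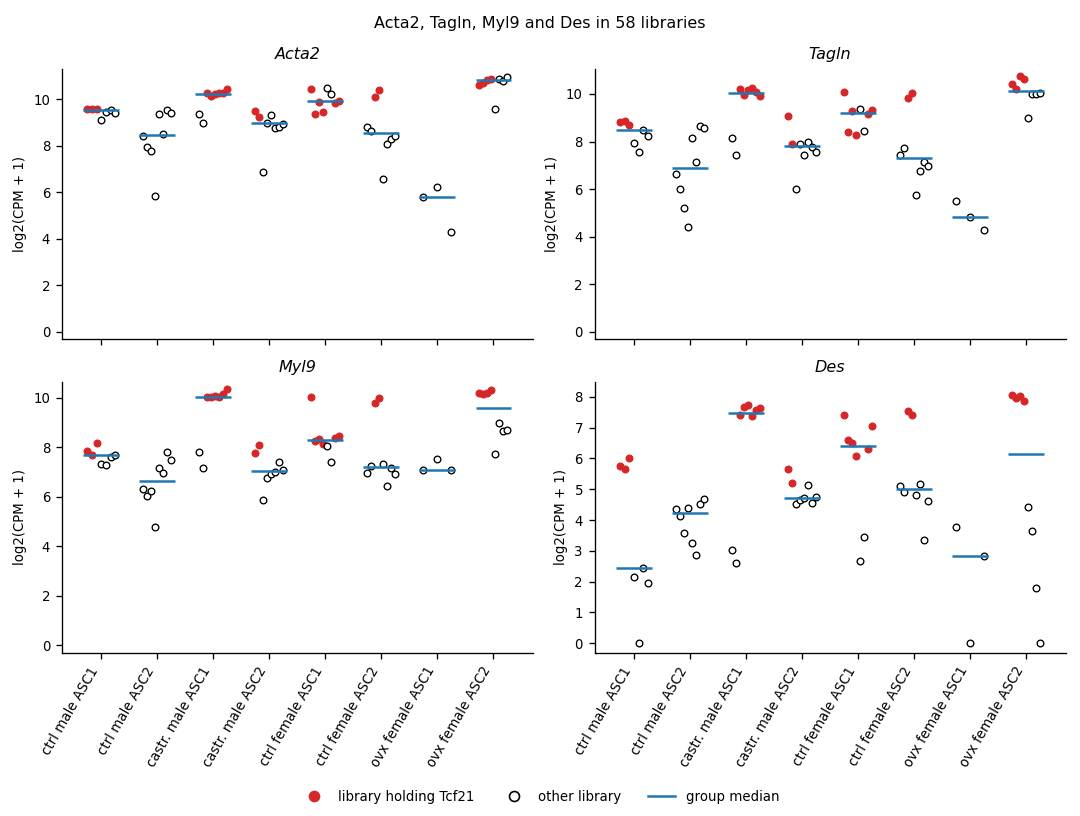
Levels of Acta2, Tagln, Myl9 and Des as log2(CPM + 1) on the vertical axes in the 58 libraries by group (ctrl, control; castr., castrated; ovx, ovariectomized), with group medians as blue lines and libraries holding Tcf21 in red. The group medians of Acta2 and Tagln are lowest in the 3 ovariectomized female ASC1 libraries. Single control male ASC2 libraries reach into that range, down to 55.8 CPM for Acta2 and 20.1 CPM for Tagln. For Des and Myl9 the red points lie above the others in each of the 6 groups that have both.

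ASC2 was compared with ASC1 to ask how the DPP4+ and DPP4- cells differ. Few members passed by edgeR on all libraries in control mice, and those that did were lower in ASC2. In control males Notch3 was at 1.19 to 12.5 CPM (median 4.18) in ASC2 and 4.44 to 45.8 CPM (median 9.96) in ASC1, and Mcam at 2.12 to 24.7 CPM (median 5.16) and 10.2 to 25.6 CPM (median 18). The ranges overlapped for both genes. Notch3 fell by 1.71 log2 units (standard error 0.50, adjusted p = 0.0179) and Mcam by 1.23 (standard error 0.43, adjusted p = 0.0462, edgeR's quasi-likelihood test with Benjamini-Hochberg adjustment over all tested genes). These were 2 of 10 members, where 12.2% of all tested genes passed, 6.88% as higher and 5.3% as lower. Without the Tcf21 libraries, with 4 of ASC1 left, Notch3 stood at -0.57 (adjusted p = 0.654) and Mcam at -1.42 (adjusted p = 0.125), and Des was called higher in ASC2 (2.46, adjusted p = 0.00604). These 4 ASC1 libraries all went against their sex label, and the 3 left out all matched it. Loss of Tcf21 and this mismatch cannot be told apart here. In control females Mcam was at 0 to 14 CPM (median 6.27) in ASC2 and 9.68 to 32.8 CPM (median 19.6) in ASC1. ASC2 libraries B and H reached into the ASC1 range and the other 6 lay below it. Mcam fell by 1.62 log2 units (standard error 0.44, adjusted p = 0.0134), 1 of 10 members where 6.11% of all tested genes passed, 3.54% as higher and 2.58% as lower. Without the Tcf21 libraries, with 2 of ASC1 left, Mcam stood at -1.68 (adjusted p = 0.282), and Acta2 (-2.07) and Cnn1 (-2.78) were called lower. These 2 ASC1 libraries matched their sex label, and the 6 ASC2 libraries left went against it. With only libraries that matched their sex label, 0 of 10 passed, with 1 at an unadjusted p below 0.05, where 0.7% of all tested genes were higher and 0.0591% lower.

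The filament genes did not pass by edgeR on all libraries of control mice, but some did in other fits. Acta2 averaged 415 ± 251 CPM (n = 8) in ASC2 and 713 ± 77.3 CPM (n = 7) in ASC1 of control males (± SD, adjusted p = 0.135), and 541 ± 442 CPM (n = 8) and 1032 ± 288 CPM (n = 8) in control females (adjusted p = 0.0909). The ASC2 libraries ran from 55.8 to 747 CPM in males and from 95 to 1364 CPM in females. Cnn1, the calponin gene, averaged 7.07 ± 6.60 CPM (n = 8) in ASC2 and 24.1 ± 13.3 CPM (n = 8) in ASC1 of control females (adjusted p = 0.0547). DESeq2 called Acta2 (-0.99, adjusted p = 0.0438) and Cnn1 (-1.77, adjusted p = 0.0342) as lower in ASC2 of control females, as did edgeR without a count filter. With only libraries that matched their sex label, 3 of ASC1 and 4 of ASC2, edgeR called Acta2 (-1.82), Tagln (-3.00) and Myl9 (-1.96) as lower in ASC2 of control males. All 3 of these ASC1 libraries hold Tcf21 and none of the ASC2 libraries does, so cell type and Tcf21 cannot be told apart there. In control females 4 of 7 tested mammary epithelial markers were also lower and 1 higher in ASC2, and the part of such cells was not tested. Over the 10 members the median log2 fold change was -0.79 in control males and -0.77 in control females, beside -0.01 and 0.00 over all tested genes.

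In castrated males 4 filament genes were lower in ASC2. All 8 ASC1 libraries went against their sex label and 0 of 8 ASC2 libraries did. In every comparison of ASC2 with ASC1 in castrated males, cell type and this mismatch therefore cannot be told apart. Myl9 was at 58 to 275 CPM (median 132) in ASC2 and 143 to 1302 CPM (median 1042) in ASC1, and Tagln at 62.4 to 543 CPM (median 226) and 174 to 1220.2 CPM (median 1039). Des was at 21.8 to 49.3 CPM (median 25.5) and 5.11 to 211 CPM (median 178). For these 3 genes 6 ASC1 libraries lay above every ASC2 library, and the other 2, I and J, lay within the ASC2 range for Myl9 and Tagln and below it for Des. Myl9 fell by 2.53 log2 units (standard error 0.45, adjusted p = 7.91e-05), Tagln by 1.88 (standard error 0.46, adjusted p = 0.00449), Des by 2.23 (standard error 0.66, adjusted p = 0.0199) and Acta2 by 1.10 (standard error 0.34, adjusted p = 0.0265). These were 4 of 10 members, where 9.09% of all tested genes passed, 4.47% as higher and 4.62% as lower. The 6 high ASC1 libraries are those holding Tcf21. Without all Tcf21 libraries, 2 of ASC1 and 6 of ASC2 remained, 0 of 10 passed by edgeR with 1 at an unadjusted p below 0.05, and Des stood at 2.05 (adjusted p = 0.194), the opposite sign. In that fit 0.385% of all tested genes were higher and 0.231% lower. With only the Tcf21 libraries, 6 of ASC1 and 2 of ASC2, the 4 genes passed as lower (Acta2 -0.89, Tagln -1.51, Des -2.15, Myl9 -2.19) and Notch3 as higher (1.69, adjusted p = 0.0117).

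**Figure D2:**
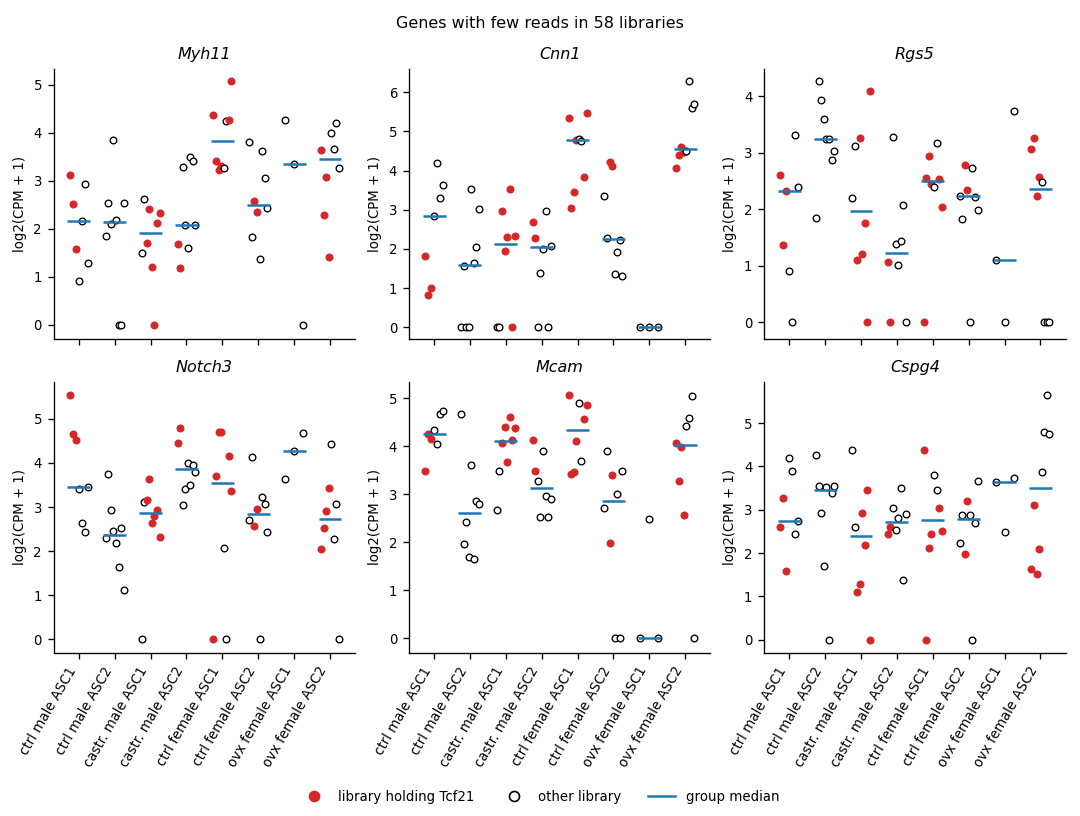
Levels of Myh11, Cnn1, Rgs5, Notch3, Mcam and Cspg4 as log2(CPM + 1) on the vertical axes in the 58 libraries, with groups, medians and colours as in the plot of the abundant genes. Cnn1 is at 0 in all 3 ovariectomized female ASC1 libraries.

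In ovariectomized females the members that passed were higher in ASC2. Acta2 was at 54.9, 73.4 and 18.6 CPM in ASC1 libraries L, N and P and at 776 to 2021 CPM (median 1815) in ASC2. Tagln was at 44.6, 27.5 and 18.6 CPM and 506 to 1705 CPM (median 1108), and Myl9 at 136, 184 and 136 CPM and 212 to 1281 CPM (median 827). The groups did not overlap for these 3 genes, as for 13.4% of all tested genes with every ASC2 library higher. Des was at 12.6, 0 and 6.19 CPM in ASC1 and at 0 to 266 CPM (median 126) in ASC2, where libraries N, O and P lay within the ASC1 range. Acta2 was higher in ASC2 by 5.02 log2 units (standard error 0.65, adjusted p = 8.51e-09), Tagln by 5.11 (standard error 0.89, adjusted p = 6.65e-06), Des by 3.99 (standard error 1.27, adjusted p = 0.0114), Mcam by 3.91 (standard error 1.10, adjusted p = 0.00411) and Myl9 by 2.39 (standard error 0.68, adjusted p = 0.00466). Cnn1 had no read in ASC1 and was at 15.7 to 76.9 CPM (median 22.5) in ASC2. Against a floor of 3 counts over the ASC1 group, which covers counting error only, Cnn1 was at least 10.8-fold higher in ASC2 (adjusted p = 5.93e-04). Mcam had 1 read in ASC1, and its ratio of ASC2 to ASC1 was 18.8 with a 95% counting interval from 3.38 to 743. These were 6 of 10 members, where 35.4% of all tested genes passed, 22.5% as higher and 12.9% as lower. The median log2 fold change of the members was 3.15 (2.91 with Cnn1 at its bound), beside 0.37 over all genes. Without the Tcf21 libraries Des was not called (0.41, adjusted p = 0.679), and without library L, the deepest of the 3, neither Des nor Mcam was. In the same comparison 6 of 7 tested mammary epithelial markers and 3 of 5 macrophage markers were higher in ASC2, and the part of such cells in the members' values was not tested.

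Averaged over the 4 treatment groups, Acta2 alone was called, higher in ASC2 by 0.56 log2 units (standard error 0.20, adjusted p = 0.0402), where 20.3% of all tested genes passed, 14.7% as higher and 5.61% as lower. Without the 3 ovariectomized ASC1 libraries Acta2 (-0.93), Tagln (-1.18), Des (-1.05), Mcam (-1.17) and Myl9 (-1.18) were called lower in ASC2, so the direction for Acta2 rests on those libraries.

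**Figure D3:**
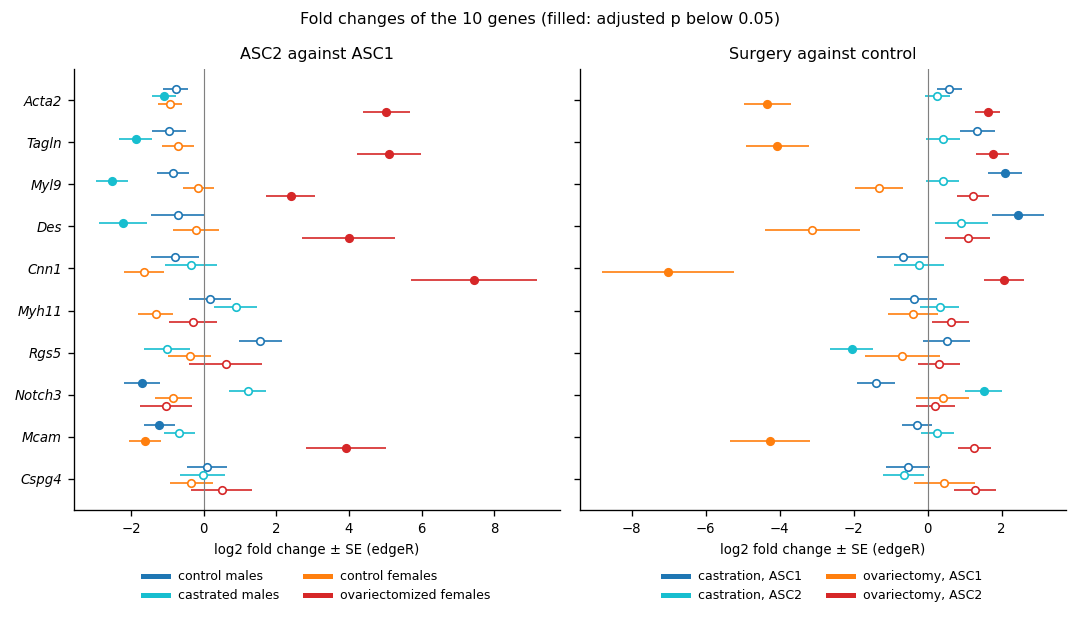
Log2 fold changes with standard errors from edgeR for the 10 genes, for ASC2 against ASC1 in the 4 treatment groups and for castration and ovariectomy against controls in each cell type, with filled points at an adjusted p below 0.05. The values farthest from 0 are those that use the 3 ovariectomized female ASC1 libraries, and the fitted Cnn1 values there, against a group without reads, are no bound.

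Castration was compared with control males to ask what loss of the testes does to these cells. In ASC1 Des was at 5.11 to 211 CPM (median 178) in castrated and 0 to 63.7 CPM (median 4.44) in control males, and Myl9 at 143 to 1302 CPM (median 1042) and 156 to 287 CPM (median 205). For both genes 6 castrated libraries lay above every control library, and libraries I and J lay within or below the control range. Des rose by 2.44 log2 units (standard error 0.69, adjusted p = 0.0397) and Myl9 by 2.08 (standard error 0.46, adjusted p = 0.00478), 2 of 10 members where 2.36% of all tested genes passed, 1.06% as higher and 1.3% as lower. Tagln averaged 881 ± 413 CPM (n = 8) in castrated and 347 ± 106 CPM (n = 7) in control ASC1 (log2 fold change 1.34, adjusted p = 0.135). Without the Tcf21 libraries, 2 castrated and 4 control libraries remained and 0 of 10 passed by edgeR, with 1 at an unadjusted p below 0.05 and Myl9 at 0.03. In that fit 0% of all tested genes passed, so the count of 0 says nothing particular about the members. With only the Tcf21 libraries, 6 and 3, Acta2 (0.70), Tagln (1.33), Des (1.77) and Myl9 (2.21) were called higher and Notch3 (-1.97) lower in castrated males. In that fit all 6 castrated libraries went against their sex label and the 3 control libraries, B, C and D, matched it. Castration and this mismatch cannot be told apart there. All castrated ASC1 libraries went against their sex label, so there is no value without such libraries.

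In ASC2 the receptor Notch3 rose and Rgs5 fell after castration. Notch3 was at 7.26 to 26.8 CPM (median 13.7) in castrated and 1.19 to 12.5 CPM (median 4.18) in control males, and Rgs5 at 0 to 8.71 CPM (median 1.35) and 2.60 to 18.3 CPM (median 8.48). The ranges overlapped, and Rgs5 rests on 12 reads in the 8 castrated and 65 in the 8 control libraries. Notch3 rose by 1.52 log2 units (standard error 0.50, adjusted p = 0.0495) and Rgs5 fell by 2.05 (standard error 0.58, adjusted p = 0.0221), 2 of 10 members where 6.96% of all tested genes passed, 2.65% as higher and 4.32% as lower. Acta2 averaged 499 ± 186 CPM (n = 8) and 415 ± 251 CPM (n = 8) (adjusted p = 0.706). The 6 endothelial markers summed to 55.9 to 112 CPM in castrated and 14.8 to 46.6 CPM in control ASC2, 4 of them were called higher, and their part in the Notch3 and Rgs5 values was not tested. The castration effect on Notch3 was higher in ASC2 than in ASC1 by 2.91 (standard error 0.71, adjusted p = 0.0121), 1 of 10 members where 2.41% of all tested genes passed, 1.53% as higher and 0.883% as lower. This difference uses the castrated ASC1 libraries, which all went against their sex label, while 0 of 8 castrated ASC2 libraries did. Without the Tcf21 libraries, with 6 castrated ASC2 libraries left, Notch3 stood at 1.17 (adjusted p = 0.194) and Rgs5 at -1.68 (adjusted p = 0.124) in ASC2, and the difference for Notch3 at 2.00 (adjusted p = 0.817). For that difference 0% of all tested genes passed without these libraries. With only libraries that matched their sex label, Notch3 in ASC2 stood at 1.03 (adjusted p = 0.213) and Rgs5 was still called (-2.31). The same fit, with 4 control libraries, called Acta2 (1.19, adjusted p = 0.0336) and Tagln (2.11, adjusted p = 0.0012) as higher in castrated ASC2.

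Ovariectomy was compared with control females to ask what loss of the ovaries does to these cells. In ASC2 3 actin filament genes rose. Acta2 was at 776 to 2021 CPM (median 1815) in ovariectomized and 95 to 1364 CPM (median 375) in control females, Tagln at 506 to 1705 CPM (median 1108) and 52.3 to 1051 CPM (median 157), and Cnn1 at 15.7 to 76.9 CPM (median 22.5) and 1.47 to 17.7 CPM (median 3.74). Only control libraries C and D, which hold Tcf21, reached into the ovariectomized range. Acta2 rose by 1.62 log2 units (standard error 0.34, adjusted p = 0.00293), Tagln by 1.76 (standard error 0.46, adjusted p = 0.0238) and Cnn1 by 2.08 (standard error 0.54, adjusted p = 0.0237), 3 of 10 members where 2.09% of all tested genes passed, 0.65% as higher and 1.44% as lower. The median log2 fold change of the members was 1.25, beside 0.00 over all genes. Without the Tcf21 libraries, with 4 ovariectomized and 6 control libraries, Acta2 (2.37), Tagln (2.73), Cnn1 (3.65), Cspg4 (2.31) and Myl9 (1.56) were called higher. With only the Tcf21 libraries, 4 and 2, 0 of 10 passed by edgeR with 2 at an unadjusted p below 0.05, and Acta2 stood at 0.48. Of all tested genes 0.0608% were higher and 1.03% lower there. With only libraries that matched their sex label, which leaves the same 2 control libraries, C and D, 0 passed, 0 had an unadjusted p below 0.05, and Acta2 stood at 0.48 and Tagln at 0.29. In this last fit 0% of all tested genes were higher and 0.0169% lower.

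Mammary epithelial markers moved in the same comparison. The mammary gland lies in inguinal fat, and its myoepithelial cells express Acta2, Cnn1, Myh11 and Krt14. The 9 mammary markers summed to 671 to 1593 CPM in the 4 ovariectomized ASC2 libraries without Tcf21 (M to P), to 29.3 to 52.8 CPM in the 4 with it (I to L) and to 57.4 to 266 CPM in control female ASC2, and 5 of 7 tested markers were called higher and 1 lower. Cnn1 was at 21.7 to 76.9 CPM in M to P and 15.7 to 23.2 CPM in I to L, and Cspg4 at 13.7 to 49.5 CPM and 1.85 to 7.68 CPM. Acta2 was at 776 to 2021 CPM in M to P and at 1564 to 1867 CPM in I to L, where Krt14 was at 0 to 3.29 CPM. The part of mammary cells in the values of Acta2, Tagln, Cnn1 and Cspg4 was not tested.

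In ASC1 4 members fell after ovariectomy. Acta2, at 54.9, 73.4 and 18.6 CPM in libraries L, N and P, was at 665 to 1434 CPM (median 964) in control females, and Tagln, at 44.6, 27.5 and 18.6 CPM, was at 307 to 1089 CPM (median 591). For Acta2, Tagln, Cnn1 and Mcam every ovariectomized library lay below every control library, as for 13.1% of all tested genes. Acta2 fell by 4.33 log2 units (standard error 0.63, adjusted p = 1.71e-07), Tagln by 4.06 (standard error 0.85, adjusted p = 1.41e-04) and Mcam by 4.25 (standard error 1.08, adjusted p = 0.00153). Cnn1 was at 7.26 to 43.6 CPM (median 26.4) in controls and at least 9.70-fold lower after ovariectomy (adjusted p = 0.00162). These were 4 of 10 members, where 34.8% of all tested genes passed, 12.7% as higher and 22.1% as lower. The median log2 fold change was -2.21 for the members and -0.34 for all genes. Myl9, at 136, 184 and 136 CPM and 170.3 to 1043 CPM (median 314), did not pass (-1.31, adjusted p = 0.111). Without library L only Acta2 and Tagln passed. The ovariectomy effect was higher in ASC2 than in ASC1 for 6 of 10 members, with Acta2 at 5.95 (standard error 0.72, adjusted p = 1.98e-09) and Tagln at 5.82 (standard error 0.98, adjusted p = 4.08e-06), where 34.8% of all tested genes passed, 22.1% as higher and 12.6% as lower. For Des this difference turned to -1.43 (adjusted p = 0.266) without the Tcf21 libraries.

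Pericyte markers did not move together in the same 3 libraries. Kcnj8 and Abcc9, subunits of a pericyte potassium channel, averaged 89.2 ± 19.8 CPM (n = 3) and 83.2 ± 36.4 CPM (n = 3) in ovariectomized ASC1 and 11.4 ± 6.94 CPM (n = 8) and 3.94 ± 5.21 CPM (n = 8) in control female ASC1, and Vtn (vitronectin) averaged 291 ± 115 CPM (n = 3) and 10.3 ± 3.70 CPM (n = 8). All 3 rose (log2 fold changes 2.85, 4.22 and 4.83, adjusted p = 3.36e-06, 3.87e-07 and 1.72e-12), and Pdgfrb fell (-0.76, adjusted p = 0.0285). Of 7 tested pericyte markers 3 lay above and 4 below 0, with a median of -0.68 beside -0.34 over all genes. Rgs5 had 3 reads in these libraries. All 6 fibroblast markers were called higher there as well, and the part of a different cell make-up in these results was not tested.

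Control males were compared with control females as the sex difference without surgery. In ASC1 0 of 10 members passed by edgeR, with 3 at an unadjusted p below 0.05 and 1 called by DESeq2, where 0.289% of all tested genes passed, 0.136% as higher and 0.152% as lower. Myh11 was at 0.872 to 7.64 CPM (median 3.47) in males and 8.33 to 32.7 CPM (median 13.9) in females, without overlap, as for 0.0802% of all tested genes with every male library lower (log2 fold change -2.09, standard error 0.54, adjusted p = 0.0696). It had 18 reads over the 7 male libraries. In ASC1 4 of 7 male and 5 of 8 female libraries went against their sex label. With only ASC1 libraries that matched it, Cnn1 and Notch3 were called and Myh11 was not, where 0.532% of all genes were higher and 0.194% lower. These are male libraries B, C and D, which all hold Tcf21, and female libraries A, E and F, of which A alone holds it. Sex and Tcf21 are largely confounded there. In ASC2 Myl9 was at 26.8 to 223 CPM (median 101) in males and 86.7 to 1007 CPM (median 145) in females. It was lower in males by 1.56 log2 units (standard error 0.44, adjusted p = 0.02), 1 of 10 members where 6.5% of all tested genes passed, 3.63% as higher and 2.87% as lower. Without female libraries C and D, which hold Tcf21, Myl9 stood at -0.19 (adjusted p = 0.787). With only ASC2 libraries that matched their sex label, Acta2, Tagln, Cnn1, Des and Myl9 were called lower in males, where 1.53% of all genes were. These are 4 male libraries without Tcf21 and the 2 female libraries C and D, which hold it, so sex and Tcf21 cannot be told apart there.

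**Figure D4:**
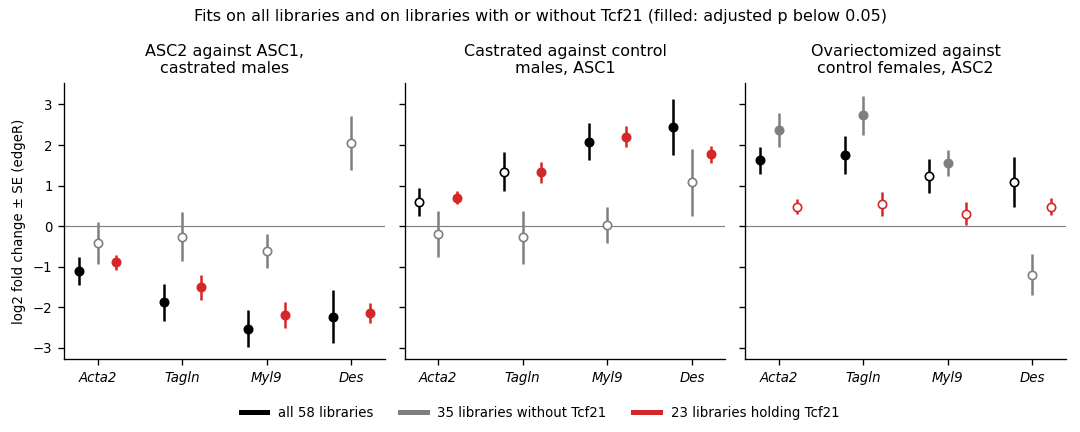
Log2 fold changes with standard errors from edgeR for Acta2, Tagln, Myl9 and Des in 3 comparisons, fitted on all 58 libraries, on the 35 without Tcf21 and on the 23 holding it, with filled points at an adjusted p below 0.05. In castrated against control ASC1, Myl9 is at 2.08 in all libraries, 0.03 without Tcf21 and 2.21 with it.

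Des and Myl9 followed the presence of Tcf21 within groups. Des was at 166 to 211 CPM in the 6 castrated male ASC1 libraries with Tcf21 and at 5.11 and 7.18 CPM in the other 2. In ovariectomized female ASC2 Des was at 230.5 to 266 CPM in 4 libraries with and 0 to 20.6 CPM in 4 without Tcf21. Myl9 was at 1038 to 1302 CPM and 143 to 224 CPM in castrated male ASC1, and at 208 to 287 CPM and 156 to 205 CPM in control male ASC1, where the separation was narrow. In control male ASC1 the libraries with Tcf21 matched their sex label and the others went against it. Tcf21 and this mismatch cannot be told apart in that group. In all 6 groups with both kinds of library, every library with Tcf21 exceeded every other for Des and for Myl9, which held for 0.738% of all tested genes, while 0.225% lay below in all 6 groups. Tagln separated upward in 4 groups, Acta2 in 3, and Myh11 and Rgs5 in none. The split was read from the data, so these values are a description.

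Further contractile genes were counted in the same comparisons, 27 of 28 being tested. In castrated males 9 were lower and 1 higher in ASC2 than in ASC1, beside 4.62% and 4.47% of all genes, led by Csrp1, a LIM protein of the actin cytoskeleton, (-0.89, adjusted p = 0.00274), Tpm1, a tropomyosin, (-0.87, adjusted p = 0.00546), Synpo2 (-2.43, adjusted p = 0.0114) and Myh9 (-0.80, adjusted p = 0.0118). In ovariectomized against control ASC2 7 were higher and 1 lower, beside 0.65% and 1.44% of all genes, led by Actg2, the other smooth muscle actin, (1.96, adjusted p = 0.00351), Csrp1 (0.91, adjusted p = 0.00722), Tpm1 (0.87, adjusted p = 0.0164) and Cnn2 (0.97, adjusted p = 0.0201). In ovariectomized against control ASC1 17 were lower and 2 higher, beside 22.1% and 12.7% of all genes, led by Myh9, a non-muscle myosin, (-3.79, adjusted p = 4.88e-11), Tpm2, a tropomyosin, (-3.64, adjusted p = 8.21e-11), Actn1 (-4.45, adjusted p = 5.73e-10) and Pdlim7 (-2.56, adjusted p = 6.95e-10). In ASC2 against ASC1, 1 were higher and 4 lower in control males (all genes 6.88% and 5.3%), 1 and 3 in control females (all genes 3.54% and 2.58%), and 18 and 1 in ovariectomized females (all genes 22.5% and 12.9%). Castration gave 0 calls in ASC1 by edgeR (4 at an unadjusted p below 0.05, 2 by DESeq2) and 0 in ASC2 (6 and 0).

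Of 14 regulators of the SRF and Notch pathways 11 were tested. In ovariectomized against control ASC1 5 were lower and 1 higher, in the comparison where 22.1% and 12.7% of all genes were, led by Mrtfb, a myocardin-related cofactor of SRF, (-1.44, adjusted p = 0.00196), Tead1, a partner of YAP, (-1.97, adjusted p = 0.00313), Hes1, a Notch target, (3.53, adjusted p = 0.00498) and Mrtfa (-1.51, adjusted p = 0.0123). In castrated against control ASC2, where Notch3 was higher, Notch2 was lower (-1.46, adjusted p = 1.90e-04), at 120.3 ± 40.9 CPM (n = 8) and 332 ± 216 CPM (n = 8). In ovariectomized against control ASC2 0 of 11 passed by edgeR, with 3 at an unadjusted p below 0.05 and 1 by DESeq2.

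The genes most like Acta2 were ranked by the lower of the Pearson correlations of log2(CPM + 1) over 26 ASC1 and over 32 ASC2 libraries, after subtracting group means and among genes averaging at least 5 CPM. They were Thbs1 (0.919 and 0.872), Ccn2 (0.844 and 0.809), Tagln (0.751 and 0.932). Thbs1 encodes thrombospondin 1 and Ccn2 a connective tissue growth factor. For Rgs5 the leading genes were Manea (0.567 and 0.619), Sh3gl1 (0.553 and 0.547), Lgals8 (0.535 and 0.568), on few reads. The points of these correlations share library depth and the split by Tcf21, and the values are a description.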

How the data were processed

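The libraries were sequenced with Smart-seq3, and the submitters' processing notes and methods name NGmerge for trimming, FastQC 0.11.9, MultiQC 1.12 and STAR 2.7.10a for quality control and Salmon 1.9.0 for quantification against GRCm39 with a Gencode annotation. The deposited values are estimated counts per gene, made by the authors by adding reads with and without a molecular identifier, and the authors dropped libraries with under 8500 genes. Of the counts above 0, 15.0% were not whole, within 1e-06, and all were rounded. A gene was kept where more than 3 of the 58 libraries held 5 reads or more of it. Counts were scaled by TMM and fitted in edgeR 4.0.16 (R 4.3.3) with estimateDisp, glmQLFit and glmQLFTest, with 1 coefficient for each of the 8 groups (biological coefficient of variation 35.6%). P-values were adjusted over all 12464 genes by the method of Benjamini and Hochberg, and a gene was called at an adjusted p below 0.05. DESeq2 1.42.0 was an alternative, beside other size factors, no filter, a replicate block and left-out libraries. On simulated counts of 12464 genes for castrated against control ASC2, 154 of 200 genes changed 4-fold were recovered (77%), with 5 false calls among the unchanged genes. The simulated counts held no split by Tcf21 and no library against its sex label, so these rates do not cover such differences. A library held Tcf21 at 5 CPM or more. Total counts were 106562 to 1421518 a library, so that genes of a few reads are imprecise, and intervals and floors cover counting error only. No 2 libraries of a group matched within sampling noise. All members are named, of the other lists up to 4 genes with the lowest adjusted p in a comparison and the defining markers near 0, and for Acta2 and Rgs5 the 3 most similar genes. The members and lists were chosen with earlier results of these data known. Promoter coordinates are on GRCm38.p6, and no coordinate was carried to GRCm39. Tagln and Myh11 had no promoter entry in the table.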

Additional observations from a re-analysis of the deposited data

Results flagged for a closer look

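Of 70 sets of 1 gene in 1 group, 11 had a library far from the others by Dixon's criterion. The criterion flags about 1 in 20 by chance where values are normally distributed. Genes of few reads and groups split by Tcf21 do not meet this, so 11 of 70 cannot be set against that rate. Acta2 was low in control male ASC1 library E (556.3 CPM), control male ASC2 library D (55.77 CPM), castrated male ASC2 library K (117.5 CPM) and ovariectomized female ASC2 library M (776 CPM), and Tagln was low in the last of these (505.9 CPM). Rgs5 was at 0 CPM in control female ASC1 library A and in control female ASC2 library E, Notch3 at 0 CPM in castrated male ASC1 library I and control female ASC2 library E, and Cspg4 at 0 CPM in control female ASC2 library F. Myl9 was high in control female ASC1 library A, at 1043 CPM.

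The effect of surgery differed between ASC2 and ASC1 in a test of the difference itself for 7 results. For castration, Notch3 differed by 2.91 log2 units, with all 8 castrated ASC1 libraries against their sex label. For ovariectomy the differences were 5.95 for Acta2, 5.82 for Tagln, 9.10 for Cnn1 as fitted against a group without reads, 4.21 for Des, 5.52 for Mcam and 2.54 for Myl9, and all 6 use the 3 ovariectomized female ASC1 libraries.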

How the results depend on the processing

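Of the values of called members under the alternatives, 254 kept direction and call, 41 kept direction only and 3 reversed. The reversed values were Des at 2.05 in ASC2 against ASC1 of castrated males and at -1.43 in the difference of the ovariectomy effects, both without the Tcf21 libraries, and Acta2 at -0.93 in the average of ASC2 against ASC1 without the ovariectomized ASC1 libraries. The cause was not tested.

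Counts of called members that moved by more than 1.5 times were as follows. For ASC2 against ASC1 in control males, 2 became 1 without a count filter, 1 with only the groups compared, 4 without libraries against their sex label and 1 without the Tcf21 libraries. In control females, 1 became 2 with RLE size factors, 3 without a filter, 2 with only the groups compared, 3 with DESeq2, 0 without libraries against their sex label, 2 without the Tcf21 libraries and 3 with only these. In castrated males, 4 became 0 without the Tcf21 libraries. In the average, 1 became 0 with RLE size factors, 0 with the replicate block and 5 without the ovariectomized ASC1 libraries, and leaving out 1 of the 3 gave 0 to 1. For castration in ASC1, 2 became 4 with only the groups compared, 0 without and 5 with only the Tcf21 libraries. For castration in ASC2, 2 became 1 with only the groups compared and 0 without the Tcf21 libraries. For ovariectomy in ASC1, leaving out 1 library gave 2 to 4. For ovariectomy in ASC2, 3 became 0 without libraries against their sex label, 5 without and 0 with only the Tcf21 libraries. For control males against females, 0 in ASC1 became 2 without libraries against their sex label, 1 with only the groups compared, 2 with only the Tcf21 libraries and 1 with DESeq2. In ASC2, 1 became 2 without a filter, 0 with the replicate block, 5 without libraries against their sex label and 0 without the Tcf21 libraries. For the difference of the castration effects, 1 became 2 without a filter and 0 without the Tcf21 libraries. Without the Tcf21 libraries 0% of all tested genes passed for this difference and for castration in ASC1. Among smaller moves, ovariectomy in ASC1 went from 4 to 6 without a filter, with only the groups compared and without libraries against their sex label, and to 5 with DESeq2 and without the Tcf21 libraries. Castration in ASC2 went from 2 to 3 without libraries against their sex label. ASC2 against ASC1 went from 4 to 3 with the replicate block and to 5 with only the groups compared and with only the Tcf21 libraries in castrated males, from 2 to 3 with DESeq2 in control males, and from 6 to 5 without the Tcf21 libraries in ovariectomized females. Castration in ASC1 went from 2 to 3 without a filter. The difference of the ovariectomy effects went from 6 to 4 without libraries against their sex label and to 5 without the Tcf21 libraries, and leaving out 1 ovariectomized ASC1 library gave 5 to 6 there and 4 to 6 for ASC2 against ASC1 in ovariectomized females. Ovariectomy in ASC2 went from 3 to 4 without a filter and to 2 with only the groups compared.

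Library letters were not taken to pair the samples, since the correlations of same-lettered libraries were not all above 0.1. Between ASC1 and ASC2 of control males they ran from 0.0537 to 0.203, so pairing is not excluded there. Libraries that correlated best with their own letter numbered 5 of 7 and 3 of 8 for ASC1 with ASC2 in control males and females, 0 of 8 in castrated males and 1 of 3 in ovariectomized females. The replicate block took the average and the sex difference in ASC2 to 0 calls. Comparisons with castrated male ASC1 have no value without libraries against their sex label, and the average has none with only the groups compared. Genes of few reads, such as Rgs5 and Myh11, are limited by depth.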

Other observations

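Genes of striated muscle, which neighbours fat and has its own contractile proteins, were counted in the same comparisons. In ASC2 against ASC1, 4 of 7 tested were higher in control males, 5 in control females and 3 in ovariectomized females by edgeR. DESeq2 called 1, 3 and 2 of them. Reads were few, and of the 11 listed genes 6 had no read in control male ASC1 and 10 none in ovariectomized ASC1. Of all tested genes 6.88%, 3.54% and 22.5% were higher there. In castrated males 0 of 7 passed by edgeR (1 at an unadjusted p below 0.05, 0 by DESeq2), beside 9.09% of all genes. Castration went with 2 lower in ASC2 by edgeR (1 called by DESeq2), beside 4.32% of all genes. Of 5 tested macrophage markers, 3 were lower in ovariectomized than in control ASC1, beside 22.1% of all genes. In castrated males 3 were higher in ASC2 than in ASC1, beside 4.47% of all genes. The part of these cells in the values of the 10 genes was not tested.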
